A study of Mus musculus with 27 samples.

Results

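The 10 genes described here encode the enzymes, the lipid handling proteins and the receptors of fatty acid oxidation and its control by peroxisome proliferator-activated receptors (PPARs). They are Cpt1a, Cpt1b, Pdk4, Angptl4, Plin2, Hadha, Acadl, Acadm, Ppard and Ppara, picked by symbol, and all 10 were found among the 20446 genes of the count table. They were followed in C2C12 myotubes at 9 time points after a pulse of serum. C2C12 cells are mouse myoblasts that stop dividing and fuse into multinucleate myotubes in low serum. All 27 libraries came from cultures that had differentiated in 2% horse serum and had then received a 2 h pulse of 50% horse serum, which aligns the circadian clocks of the cells. RNA was taken at 12, 18, 24, 30, 36, 42, 48, 54 and 60 h after the pulse, with 3 libraries at each time, numbered 1 to 3. There was no culture without the pulse, and the series holds a single cell line, so a change with hours after the pulse cannot be told apart from a change with age of the culture.

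Long-chain fatty acids enter mitochondria as carnitine esters made by CPT1, and acyl-CoA dehydrogenases and the trifunctional protein then shorten them in rounds of beta-oxidation. PPARs are nuclear receptors that bind fatty acids and, as heterodimers with RXR, activate genes of lipid uptake, storage and oxidation. In skeletal muscle PPAR delta and PPAR alpha are the main activators of this programme, and Pdk4, Angptl4, Plin2 and Cpt1a are among its best known targets.

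Depth ranged over 15.2 to 26.6 M counts per library (median 20.9 M), and 12687 genes passed the filter on low counts and were tested. Myotube markers were abundant throughout, with 14 of 14 tested and a summed level of 18900 to 22700 CPM (CPM being counts scaled to the size of the library). Markers of dividing cells were read as well, 8 of 8, at a summed 889 to 1360 CPM. Of 10 adipocyte markers 3 had enough reads to test, with 20.8 to 31.8 CPM summed over the list. Those 3 were Cebpa (14 to 23 CPM), Lipe (3.4 to 5.6 CPM) and Pparg (1.96 to 4.69 CPM). Cidec and Cfd were at 0 in every library, and Adipoq, Lep, Retn, Plin1 and Fabp4 did not exceed 0.11 CPM. Of 10 immune and endothelial markers 5 could be tested (3.15 to 4.55 CPM summed). In bulk RNA such as this, fewer cells of a type and less RNA per cell cannot be told apart.

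Promoter sequence was compared for the members that moved over the course. The RefSeq promoter table (GRCm38.p6, the same build as mm10) held 8 of the 10 genes, without Angptl4 and Cpt1b. Below are the 250 bases before and 10 bases after the start of 2 genes that fell, Cpt1a (chr19:3323051-3323310, plus strand) and Plin2 (chr4:86670050-86670309, minus strand), and of the gene that rose, Pdk4 (chr6:5496269-5496528, minus strand), each read along the gene. Capitals mark TGACCT, which is AGGTCA on the other strand, the hexamer that nuclear receptors of the PPAR kind recognise, and CACGTG, the E-box bound by CLOCK and BMAL1.
Cpt1a: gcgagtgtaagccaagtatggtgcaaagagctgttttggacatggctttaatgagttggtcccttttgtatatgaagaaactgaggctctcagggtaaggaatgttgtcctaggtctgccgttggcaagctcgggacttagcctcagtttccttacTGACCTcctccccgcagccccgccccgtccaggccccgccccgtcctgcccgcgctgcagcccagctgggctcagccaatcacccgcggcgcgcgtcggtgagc
Plin2: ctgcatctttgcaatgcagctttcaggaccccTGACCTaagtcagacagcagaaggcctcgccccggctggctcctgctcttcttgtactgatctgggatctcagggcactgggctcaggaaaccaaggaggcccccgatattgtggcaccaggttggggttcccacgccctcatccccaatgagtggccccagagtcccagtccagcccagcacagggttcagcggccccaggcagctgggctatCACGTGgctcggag
Pdk4: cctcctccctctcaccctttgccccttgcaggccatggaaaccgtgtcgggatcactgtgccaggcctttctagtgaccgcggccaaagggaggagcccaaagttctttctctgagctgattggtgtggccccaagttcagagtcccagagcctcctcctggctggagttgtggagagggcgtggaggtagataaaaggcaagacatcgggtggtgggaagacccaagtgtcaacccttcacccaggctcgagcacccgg
AGGTCA was searched on both strands of the full window of 300 bases and was found in 3 of the 8 promoters, those of Cpt1a (bases -94 to -89 from the start), Plin2 (-218 to -213) and Acadm (-249 to -244). Over the 32851 promoters of the table, 16.3% hold it. A direct repeat of AGGTCA with 1 base between the copies, the DR1 element of PPAR and RXR, was in 0 of the 8 and in 0.0396% of all promoters. CACGTG, which reads the same on both strands, was in 1 of the 8 (Plin2, -4 to 2) and in 7.15% of all. None of these matches overlapped another. A match describes these letters only, and copies with changed letters were not searched. The absence of a match in this window thus says nothing of a receptor's binding within it or elsewhere.

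The levels of the 10 genes per length of transcript differed widely. Plin2, which encodes the coat protein of lipid droplets, had the highest level, with a median of 101 CPM per kb of exon over the 27 libraries (lowest 85.5, highest 147). Hadha, the alpha subunit of the trifunctional protein, followed at 61.4 CPM per kb (54.7 to 67.6). The long-chain acyl-CoA dehydrogenase Acadl had 50.2 CPM per kb (43.4 to 66.4) and the medium-chain enzyme Acadm 41.4 CPM per kb (38.2 to 43.9). Neighbours in this order overlapped in their ranges, except that the lowest library of Plin2 lay above the highest of Hadha. Next came the regulated genes. Pdk4, the kinase that switches off pyruvate dehydrogenase, had 13.8 CPM per kb (9.14 to 17.2). Cpt1a, the CPT1 isoform best known from liver, had 12.6 CPM per kb (9.34 to 21.5), and Angptl4, a secreted inhibitor of lipoprotein lipase, also had 12.6 CPM per kb (9.88 to 23.6). These 3 overlapped almost fully and their order is not resolved. The scale rests on the exons of the basic GENCODE M21 transcripts. With every annotated exon counted, Acadl (47.9 CPM per kb) stood above Hadha (28.3) and Cpt1a fell to 7.1 CPM per kb, below Angptl4 (11.8).

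Of the receptors, Ppard was the one read at a level that could be tested, with a median of 2.9 CPM per kb (1.37 to 5.35), and Ppara had 0.0834 CPM per kb (0.0124 to 0.159). Ppara had 1 to 15 reads a library and did not pass the filter on low counts. With the filter taken off, which leaves out the alternation, edgeR called neither Ppara nor Cpt1b in any of 7 comparisons, at counts that limit the precision. The level of Ppara was 0.249 ± 0.0929 CPM at 60 h, against 0.275 ± 0.0503 CPM at 12 h (SD, n = 3). Cpt1b, the CPT1 isoform typical of adult muscle, had 3 to 13 reads a library and a median of 0.102 CPM per kb (0.0415 to 0.196). Cpt1a thus gave 87.3 to 603 times the CPM of Cpt1b in single libraries. Cpt1b had 0.259 ± 0.115 CPM at 12 h, 0.515 ± 0.0477 CPM at 36 h and 0.253 ± 0.141 CPM at 60 h (SD, n = 3). Its 36 h libraries did not overlap those of 12 h or 60 h, at these few reads. The count of Cpt1b is uncertain, because 94.8% of its exon bases (2744 of 2895) lie also in Gm44502, a gene on the same strand that joins it to Chkb and has no row in the table. Chkb shares 81.0% of its exon bases with Gm44502 and had a median of 35.8 CPM. Whether reads in shared exons were discarded is not given in the sources used here, and its part in the low Cpt1b count was not tested. Hadha shares 1.87% of its exon bases with Garem2 on the opposite strand (median 0.722 CPM).

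**Figure D1:**
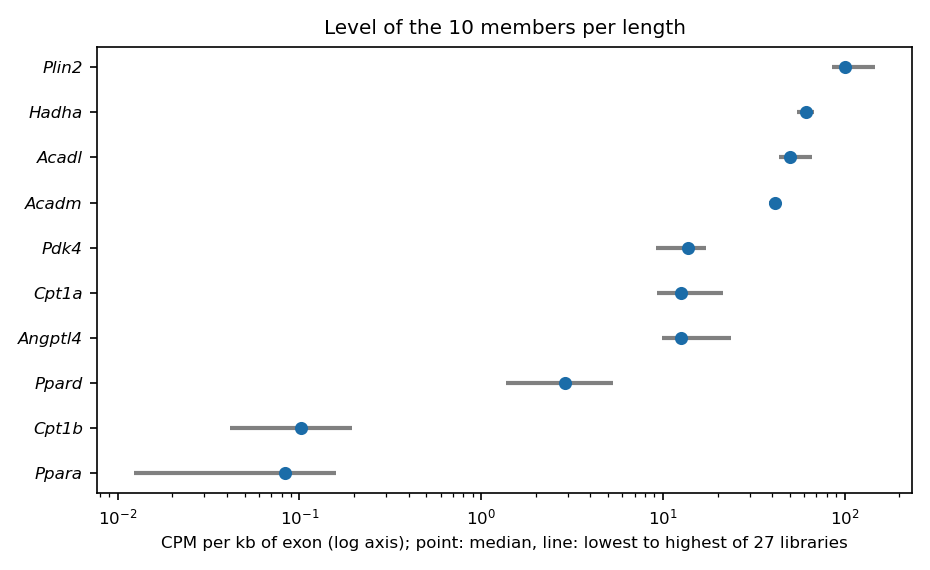
Level of each of the 10 genes in CPM per kb of exon on a log axis, where the point is the median and the line runs from the lowest to the highest of 27 libraries. Plin2 stands highest with a median of 101, 8 genes lie above 1, and Cpt1b and Ppara lie near 0.1.

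The first question was which of these genes changed at all over the 9 time points. Of the 8 tested members 2, Cpt1a and Angptl4, changed (edgeR quasi-likelihood F test over 8 contrasts, p adjusted by Benjamini-Hochberg across the 12687 genes, under 0.05). The share called among all genes was 18.4%, near that of the members. Both genes were lower from 36 h on than at 12 h, and Angptl4 had reached its later range by 24 h. Nothing states that the 3 libraries of a time point came from separate cultures, so these p-values measure only the spread between libraries, which may be technical.

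For Angptl4 the level was 73.3, 72.1 and 78.1 CPM in libraries 1, 2 and 3 at 12 h, then 57.9, 57.5 and 65.9 CPM at 18 h, and 39.4, 41.8 and 41.2 CPM at 24 h. The 12 h libraries stood above those of 18 h, and these stood above each of the 21 libraries from 24 to 60 h, without overlap. From 24 h on it moved between 32.7 and 47.6 CPM (median 40.5). The means of 3 libraries at 30, 36, 42, 48, 54 and 60 h were 42.4 ± 3.93, 37.6 ± 2.39, 45.1 ± 1.83, 36.1 ± 3.13, 43.1 ± 4.14 and 40.3 ± 3.83 CPM (SD). The span between its highest and lowest fitted time points was 1.04 on the log2 scale (edgeR adjusted p = 1.57e-08).

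Cpt1a reached its later range by 36 h. It had 74.5, 65.6 and 78.8 CPM in libraries 1, 2 and 3 at 12 h, 92.8, 75.6 and 89.2 CPM at 18 h, and 69.6, 67.5 and 78.3 CPM at 24 h. At 30 h the level was 70.8, 54.2 and 63.3 CPM, and at 36 h it was 51.2, 49.2 and 49.6 CPM. The 15 libraries from 36 to 60 h lay between 40.3 and 58.1 CPM and the 9 from 12 to 24 h between 65.6 and 92.8 CPM, so the 2 sets did not overlap, and the 30 h libraries reached into both. The lowest mean was 45.1 ± 1.61 CPM at 60 h and the highest 85.9 ± 9.13 CPM at 18 h (SD, n = 3), a ratio of highest to lowest of 1.91. The fitted span was 0.93 on the log2 scale (edgeR adjusted p = 8.8e-07), and it was called whichever of the 27 libraries was left out.

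The other 6 members did not pass this test. Plin2 came nearest (edgeR adjusted p = 0.0518). It passed in 14 of the 27 fits that each left out a library (adjusted p from 0.0163 to 0.261 over the 27). These 14 left out library 3 of 12 h, 2 or 3 of 18, 24, 30, 36 or 60 h, 2 of 48 h, and 1 or 2 of 54 h. It also passed in the fit without the 9 libraries numbered 2, and with DESeq2 (adjusted p = 0.00977). It had 249, 277 and 224 CPM in libraries 1, 2 and 3 at 12 h, 200, 230 and 195 CPM at 18 h, and 162 to 226 CPM in the 21 libraries from 24 h on. Hadha moved between time point means of 227 and 259 CPM (edgeR adjusted p = 0.147, DESeq2 0.0303), and Acadl between 91 and 114 CPM (edgeR adjusted p = 0.213, or 0.0485 without library 3 of 12 h). Acadm had time point means from 81.8 to 87.2 CPM, a ratio of 1.07 (adjusted p = 1). Ppard, with time point means from 8.09 to 12.2 CPM, also had an adjusted p of 1, and Pdk4 one of 0.426. Whether members differ in how much they varied was not tested.

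**Figure D2:**
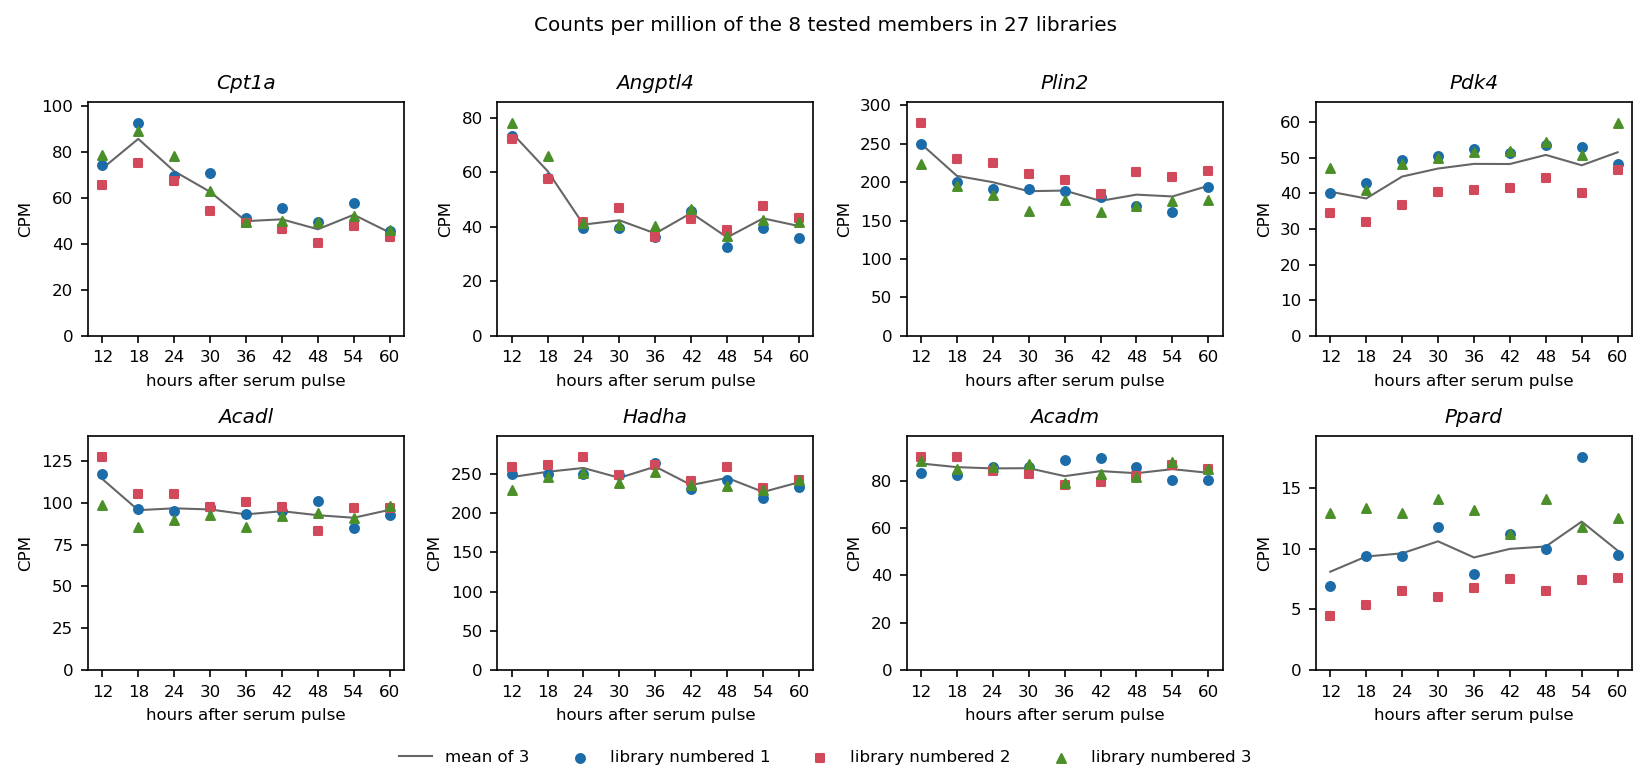
CPM of the 8 tested genes against hours after the serum pulse, with a symbol for each of the 3 library numbers and a line through the means of 3. Angptl4 drops by 24 h and Cpt1a between 24 and 36 h, while in Cpt1a, Pdk4 and Ppard the library numbered 2 is the lowest at each of the 9 time points.

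Time points 24 h apart have the same phase of a daily wave, so their contrasts show drift. At 60 h against 12 h, 0 of the 8 tested members were higher and 3 were lower (edgeR adjusted p under 0.05), where 9.48% and 6.54% of all genes were (16.0% in either direction, as also at 36 h). Angptl4 was 40.3 ± 3.83 CPM at 60 h, against 74.5 ± 3.19 CPM at 12 h (SD, n = 3), a log2 change of -0.89 ± 0.09 (SE, adjusted p = 1.07e-07). Cpt1a was 45.1 ± 1.61 CPM at 60 h, against 73 ± 6.75 CPM at 12 h, a log2 change of -0.70 ± 0.11 (adjusted p = 4.28e-05). Plin2 was 195 ± 18.9 CPM at 60 h, against 250 ± 26.7 CPM at 12 h, and changed by -0.36 ± 0.12 (adjusted p = 0.0417). The libraries of 60 h and 12 h did not overlap for these 3 genes, nor for Acadl, which was not called. The share of all genes without overlap was not counted. The call of Plin2 was lost without library 1 or 2 of 12 h or library 1 or 3 of 60 h, when the log2 change was as small as -0.28 and adjusted p as high as 0.182. The same fall was seen in each library number, with log2 60 h over 12 h of -0.363, -0.368 and -0.337 for Plin2, -0.709, -0.6 and -0.766 for Cpt1a, and -1.03, -0.74 and -0.905 for Angptl4. Acadl, at 95.8 ± 2.56 CPM at 60 h against 114 ± 14.6 CPM at 12 h, was not called (-0.25 ± 0.09, adjusted p = 0.0671), but was without library 3 of 12 or 18 h or library 2 of 48 h (adjusted p of down to 0.0106). The median of the 8 members was -0.16, beside -0.01 for all genes.

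Over the first 24 h, at 36 h against 12 h, 0 members were higher and 4 lower, with 9.27% and 6.72% of all genes called up and down. Angptl4 was 37.6 ± 2.39 CPM at 36 h, against 74.5 ± 3.19 CPM at 12 h, a log2 change of -0.99 ± 0.09 (edgeR adjusted p = 2e-08). Cpt1a changed by -0.54 ± 0.11 (adjusted p = 0.000698) and Plin2 by -0.40 ± 0.12 (adjusted p = 0.0206). The Plin2 call was lost without library 2 of 12 h or 3 of 36 h, with an adjusted p of up to 0.103. Acadl, the fourth, had 93.2, 100 and 85.8 CPM at 36 h, against 117, 127 and 98.4 CPM at 12 h. Its sets overlapped and the log2 change was -0.30 ± 0.09 (adjusted p = 0.03). That call was lost without library 1 or 2 of 12 h or 1 or 3 of 36 h (adjusted p of up to 0.183), and without the 9 libraries numbered 2 (-0.27, adjusted p = 0.0798). The median of the members was -0.19, against -0.01 for all genes.

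At 60 h against 36 h no member was called by edgeR or by DESeq2, while edgeR called 0.875% of all genes, 0.504% up and 0.370% down. At an unadjusted p under 0.05 there was 1 member, Hadha, and 980 genes. Hadha was 240 ± 4.9 CPM at 60 h, against 259 ± 5.76 CPM at 36 h, and did not overlap between these times. Cpt1a, at 45.1 ± 1.61 CPM at 60 h against 50 ± 1.07 CPM at 36 h, did not overlap either. The same held for Cpt1b, which had too few reads to test. The share of all genes without overlap was not counted here either. Cpt1a had a log2 difference of -0.15 ± 0.11 (adjusted p = 0.957), and Angptl4 of 0.10 ± 0.09 (adjusted p = 0.998). The members' median was 0.04 and that of all genes 0.00. These contrasts share the 36 h libraries, so the difference of the changes was tested in itself. The change of the second 24 h minus that of the first was 1.09 ± 0.16 on the log2 scale for Angptl4 (adjusted p = 6.81e-05), the 1 member called (2.37% of genes were called up, 4.38% down and 6.75% in either direction). For Cpt1a it was 0.39 ± 0.19 (adjusted p = 0.279), and this fit did not show an unequal change for that gene. A fit that included the library number as a block did call Cpt1a and Plin2 for this difference, as given under the processing.

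**Figure D3:**
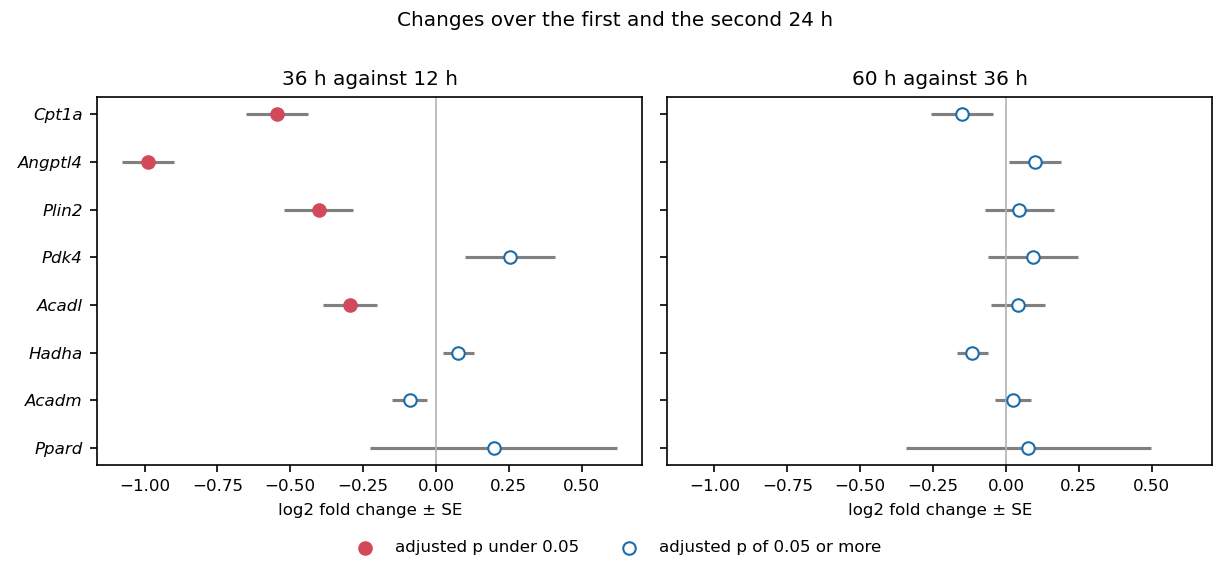
Log2 fold change ± SE of the 8 tested genes at 36 h over 12 h and at 60 h over 36 h, with filled points for an edgeR adjusted p under 0.05. Angptl4 at -0.99, Cpt1a at -0.54, Plin2 at -0.40 and Acadl at -0.30 are filled over the first 24 h and none over the second.

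Along a straight line fitted over all 9 time points together with a daily wave, 1 member rose and 3 fell (edgeR adjusted p under 0.05), where 10.7% and 8.69% of all genes did (19.4% in either direction). Per 48 h, Cpt1a changed by -0.86 ± 0.11 on the log2 scale (SE, adjusted p = 1.7e-06), Angptl4 by -0.68 ± 0.13 (adjusted p = 0.000317) and Plin2 by -0.33 ± 0.09 (adjusted p = 0.014). Without the 12 h libraries Cpt1a still fell (-0.96, adjusted p = 7.2e-05), but Angptl4 (-0.37, adjusted p = 0.127) and Plin2 (-0.16, adjusted p = 0.465) were not called. The Plin2 trend was also lost without library 2 of 12 h alone (adjusted p = 0.0518, with trends from -0.39 to -0.26 over the 27 libraries left out). The median trend of the members was -0.15, and that of all genes -0.01.

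Pdk4 was the member that rose. It had 48.1, 46.7 and 59.8 CPM in libraries 1, 2 and 3 at 60 h, against 40, 34.4 and 47 CPM at 12 h. These sets overlapped, because library 2 was the lowest at every time, but each number was higher at 60 h (log2 0.268, 0.442 and 0.346). The trend was 0.35 ± 0.11 per 48 h (edgeR adjusted p = 0.0266) and the 60 h against 12 h contrast 0.35 ± 0.15 (adjusted p = 0.145). The means of 3 libraries at the 9 times, in order, were 40.5 ± 6.35, 38.6 ± 5.93, 44.7 ± 7.02, 47 ± 5.7, 48.3 ± 6.34, 48.2 ± 5.79, 50.8 ± 5.57, 47.9 ± 6.94 and 51.5 ± 7.17 CPM (SD), so the rise was not steady. The trend call was lost without library 1 or 2 of 12 h, library 3 of 60 h (adjusted p of up to 0.0941, trend from 0.29 to 0.40) or the whole of 12 h (0.34, adjusted p = 0.15). Pdk4 and Cpt1a, both PPAR targets, thus had trends of opposite sign. Over the 9 time point means of log2 CPM their Pearson correlation was -0.951, given as a description of 9 points from the same libraries, as are the correlations that follow.

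The enzymes of the beta-oxidation rounds were not called for a trend. Acadl had -0.19 ± 0.07 per 48 h (edgeR adjusted p = 0.0638, or 0.0252 with the library number as a block), with each number at -0.23, -0.348 and 0.0471, so that libraries numbered 3 did not share the fall. Hadha had -0.10 ± 0.05 (adjusted p = 0.144) and Acadm by -0.06 ± 0.04 (adjusted p = 0.412). Acadl passed without library 3 of 12, 18 or 36 h or library 1 of 48 h (adjusted p of down to 0.025), and Hadha without library 3 of 12 h (adjusted p = 0.0404). Ppard, the receptor, had 0.26 ± 0.29 (adjusted p = 0.594), with a wide error, and its library numbers differed in level. Its mean over the 9 time points was 10.4 CPM for number 1, 6.43 CPM for number 2 and 12.9 CPM for number 3, and its time point means lay between 8.09 and 12.2 CPM. The trend within numbers was 0.62, 0.628 and -0.109.

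The difference between library numbers reached several members. The library numbered 2 was the lowest of 3 at 9 of 9 time points for Cpt1a, Pdk4 and Ppard, and the highest at 9 of 9 for Plin2. Among all tested genes it was the lowest at all 9 for 12% and the highest for 6.87%, beside 0.181% and 0.158% for number 1 and 1.24% and 0.749% for number 3. For Pdk4 the mean over the 9 time points was 49, 39.6 and 50.5 CPM for numbers 1, 2 and 3, and for Plin2 it was 192, 218 and 181 CPM. Acadm showed no such order (84.6, 84.2 and 84.6 CPM). The labels do not say what the number marks. Member calls that the fit without number 2 ended are given beside their values. The fit with the number as a block is given under the processing.

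Since the series is a circadian time course, a 24 h wave was tested for each gene. No member was called by edgeR or by DESeq2, and edgeR called 7 genes in all, 0.0552% of those tested, and all 7 were on the list of 14 core clock genes checked. Before adjustment 570 genes and 1 member, Angptl4, were under 0.05. The fitted swing of Angptl4 between trough and peak was 0.35 ± 0.11 on the log2 scale (edgeR adjusted p = 0.922). Cpt1a had a fitted swing of 0.10 (adjusted p = 1). Periods of 22 and 26 h and a quadratic term also called 0 members.

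A sawtooth could be seen late in the Angptl4 series, with 45.1 CPM at 42 h and 43.1 CPM at 54 h above 37.6, 36.1 and 40.3 CPM at 36, 48 and 60 h. A term that contrasts the collections at 12, 24, 36, 48 and 60 h with those at 18, 30, 42 and 54 h, fitted beside a curved trend and the daily wave, was -0.21 ± 0.05 for Angptl4 (log2, edgeR adjusted p = 0.0472). This was the 1 member called, downward, with 0.709% of genes called in that direction and 1.17% in either. The call held in 11 of the 27 fits that left out a library (adjusted p of up to 0.0967 in the others, -0.23 to -0.18). It was lost without library 3 of 18 h, 2 of 30 h, 1 or 2 of 36 h, 1 of 48 h, 2 or 3 of 60 h, or any of 24, 42 or 54 h, and without the libraries numbered 2 (-0.20, adjusted p = 0.223). The labels do not say whether collections 12 h apart were handled alike, and its part in the result was not tested. Cpt1a had -0.17 for the same term (adjusted p = 0.206).

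The genes whose time course was most like that of the called members were found by the Pearson correlation of 9 time point means, among 2194 genes that changed over time. For Cpt1a these were Extl1 (0.972), Stx16 (0.971) and Grik2 (0.969), and for Angptl4 they were Jade1 (0.976), Eif1ad (0.967) and Erlin2 (0.964). Among the members themselves Plin2 and Acadl had the highest correlation (0.907), followed by Angptl4 and Plin2 (0.832). Angptl4 and Cpt1a had 0.722. Ppard and Plin2 had -0.862, though no change over time was called for Ppard.

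The rest of the pathway was read from lists of related genes, for which the linear trend is given, again as log2 per 48 h. Their counts stand beside 10.7% of all genes up and 8.69% down, and their medians beside -0.01 for all genes. Of the 18 other genes of mitochondrial beta-oxidation 0 rose and 2 fell, with a median of -0.11. These were Acad11, an acyl-CoA dehydrogenase (-0.26 ± 0.07, edgeR adjusted p = 0.012), and Eci1, an enoyl-CoA isomerase (-0.33 ± 0.11, adjusted p = 0.0303). Hadh, the dehydrogenase for short chains, and Acad10 were not called (-0.15 ± 0.08 and -0.12 ± 0.11, adjusted p = 0.23 and 0.51). Eci1 was 27.2 ± 1.5 CPM at 60 h, against 35.2 ± 4.72 CPM at 12 h (SD, n = 3). In peroxisomal beta-oxidation 0 of 14 rose and 4 fell, with a median of -0.09. Abcd2, a peroxisomal importer of fatty acyl-CoA, had the largest of these changes (-0.79 ± 0.18, adjusted p = 0.00258), followed by Crot, which makes carnitine esters in peroxisomes (-0.30 ± 0.10, adjusted p = 0.0386), Acaa1a, a thiolase whose count is uncertain beside its near-identical copy Acaa1b (-0.28, adjusted p = 0.0123), and Acox3, an acyl-CoA oxidase (-0.20 ± 0.06, adjusted p = 0.0305). Abcd2 had 3.47 ± 0.446 CPM at 12 h, 5.14 ± 1.1 CPM at 30 h and 2.72 ± 0.0413 CPM at 60 h. It was not called at 60 h against 12 h (edgeR adjusted p = 0.224). Pecr, a trans-enoyl-CoA reductase, was not called for a trend (-0.29 ± 0.11, adjusted p = 0.0668). Without the 12 h libraries the falls numbered 0 in the mitochondrial and 1 in the peroxisomal list, Abcd2. Without the libraries numbered 2 the falls numbered 2 in the mitochondrial list, Eci1 and another gene not named here. They numbered 1 in the peroxisomal list, Abcd2. Acad11 (-0.21, adjusted p = 0.121), Crot and Acox3 were not called in that fit.

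Of 25 other PPAR targets 18 could be tested, 1 rose and 4 fell, with a median of -0.08. Fgf21, a hormone released by stressed muscle, fell most, to 4.06 ± 0.783 CPM at 60 h, against 27.4 ± 1.92 CPM at 12 h, a trend of -3.05 ± 0.24 (edgeR adjusted p = 1.04e-09). Acot2, a mitochondrial thioesterase, fell to 16 ± 2.17 CPM at 60 h, against 29.4 ± 2.86 CPM at 12 h (trend -0.57 ± 0.18, adjusted p = 0.0247). Its trend was not called without 12 h (0.10, adjusted p = 0.8) or without the libraries numbered 2 (-0.52, adjusted p = 0.106). Its count is uncertain, since Acot1 is a near-identical neighbour. Cpt1c, the third CPT1 gene, had a falling trend (-0.39 ± 0.11, adjusted p = 0.0142). Its level was 12.1 ± 1.52 CPM at 12 h, 16 ± 1.89 CPM at 18 h and 11.2 ± 0.216 CPM at 60 h. It was not called at 60 h against 12 h (edgeR adjusted p = 0.647). Klf10, a transcription factor, rose (0.21 ± 0.05, adjusted p = 0.00764). The fourth that fell was Ucp3, a mitochondrial carrier of muscle read at a mean of 0.552 CPM (-1.19, adjusted p = 0.00992). Without 12 h the list had 1 up and 2 down. Fgf21 is also known to be induced by stress pathways other than PPAR. Cyp4a10 and Cyp4a14, targets typical of liver, were among those with too few reads.

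Of 22 partners and coregulators of PPAR 20 could be tested, and 1 rose and 0 fell (median 0.10). This was Lpin1, a coactivator and phosphatidate phosphatase, at 27.2 ± 0.56 CPM at 60 h, against 18 ± 2.83 CPM at 12 h (trend 0.38 ± 0.10, edgeR adjusted p = 0.00922). Pparg, the remaining PPAR, had 2.53 ± 0.511 CPM at 60 h, against 3.35 ± 0.14 CPM at 12 h, and was not called (-0.34 ± 0.13, adjusted p = 0.0654). Ppargc1a, which encodes the coactivator PGC-1 alpha, had 1.12 ± 0.261 CPM at 60 h, against 0.93 ± 0.27 CPM at 12 h (0.21 ± 0.22, adjusted p = 0.559). Esrra, a receptor that works with PGC-1 alpha, had 0.14 ± 0.08 (adjusted p = 0.203). Without 12 h the list had 0 called in either direction by edgeR.

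Around Pdk4, the pyruvate dehydrogenase list had 2 of 11 genes up and 1 down (median -0.07). Pdk1, a sister kinase of Pdk4, rose to 66.4 ± 6.83 CPM at 60 h, against 36.3 ± 1.72 CPM at 12 h (trend 0.63 ± 0.16, edgeR adjusted p = 0.00577). It also alternated between collections (0.39 ± 0.05, adjusted p = 0.000129), with 68.9 CPM at 36 h, 49.6 CPM at 42 h, 64.7 CPM at 48 h and 44.7 CPM at 54 h. Pdp2, the phosphatase that reverses these kinases, rose as well (0.62 ± 0.15, adjusted p = 0.004), and Dld, the dihydrolipoamide dehydrogenase subunit, fell (-0.20 ± 0.05, adjusted p = 0.00729). Pdk3 was not called for a trend (0.22 ± 0.08, adjusted p = 0.0554). Without 12 h none of the 11 was called for a trend by edgeR. Without the libraries numbered 2 the fall of Dld was not called (-0.17, edgeR adjusted p = 0.0996). In the control of CPT1 by malonyl-CoA and AMPK, 3 of 10 rose and 0 fell (median 0.18). Acaca, which makes malonyl-CoA, the inhibitor of CPT1, rose to 76.7 ± 3.45 CPM at 60 h, against 50.8 ± 2.73 CPM at 12 h (trend 0.55 ± 0.08, adjusted p = 2.37e-05). The other 2 were the AMPK subunits Prkab2 (0.24 ± 0.06, adjusted p = 0.00517) and Prkag2 (0.40 ± 0.12, adjusted p = 0.0138), while Prkag3, the subunit typical of muscle, had -0.15 ± 0.09 (adjusted p = 0.242). Without 12 h 1 rose (Acaca) and 1 fell (Prkag3).

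Fatty acid uptake and activation had 3 of 12 tested genes up and 0 down (median 0.18), the acyl-CoA synthetases Acsl1, Acsl3 and Acsl4. Acsl3 rose to 546 ± 6.12 CPM at 60 h, against 330 ± 20.5 CPM at 12 h (trend 0.58 ± 0.11, edgeR adjusted p = 0.000473). It also alternated between collections (0.22 ± 0.05, adjusted p = 0.0106), with 533, 474, 540 and 442 CPM at 36, 42, 48 and 54 h. So did Acsl6 (0.14 ± 0.04, adjusted p = 0.0435), where 1.17% of all genes were called in either direction. Vldlr, a lipoprotein receptor, changed without a trend. It had 15.2 ± 0.592 CPM at 12 h, 5.93 ± 0.921 CPM at 36 h and 8.39 ± 1.03 CPM at 60 h (any change, adjusted p = 1.38e-09). Acsl6 and Cd36, a fatty acid transporter, also changed in some way (adjusted p = 0.000489 and 0.00257). Cd36 was higher at 60 h, 37.4 ± 1.11 CPM, than at 12 h, 27.4 ± 2.55 CPM (edgeR log2 change 0.45 ± 0.11, adjusted p = 0.0047). Acsl6 had 49.5 ± 1.42 CPM at 12 h, 58.8 ± 1.89 CPM at 36 h and 49.3 ± 2.03 CPM at 60 h. Without the libraries numbered 2, Cd36 was not called for any change (adjusted p = 0.0807) and 2 genes of the list rose. Without 12 h 1 gene of the list rose (Vldlr) and 1 fell (Acsl6). Beside Plin2, 13 of 20 genes of lipid droplets and lipolysis could be tested, and 2 rose and 1 fell (median 0.06). Mgll, monoglyceride lipase, rose to 151 ± 0.493 CPM at 60 h, against 40.9 ± 0.208 CPM at 12 h (trend 2.21 ± 0.18, adjusted p = 2.18e-09). G0s2, an inhibitor of the lipase ATGL and a known PPAR target in fat and liver, rose to 118 ± 16.8 CPM at 60 h, against 47.5 ± 2.71 CPM at 12 h (trend 1.17 ± 0.17, adjusted p = 1.35e-05). Fitm2, which helps to form droplets, fell (-0.18 ± 0.05, adjusted p = 0.0132), and Lipe, hormone-sensitive lipase, had 0.08 ± 0.11 (adjusted p = 0.672).

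Of the relatives of Angptl4 and the lipases it acts on, 7 of 11 could be tested, and 1 rose and 1 fell (median 0.20). Angptl6 fell with Angptl4, to 4.07 ± 0.342 CPM at 60 h, against 8.32 ± 0.1 CPM at 12 h (trend -0.74 ± 0.18, edgeR adjusted p = 0.00482). Without 12 h its trend was -0.10 (adjusted p = 0.848). Lipg, endothelial lipase, rose to 36.9 ± 2.66 CPM at 60 h, against 9.8 ± 0.614 CPM at 12 h (trend 1.53 ± 0.22, adjusted p = 9.64e-06). Lpl, lipoprotein lipase, the enzyme that ANGPTL4 inhibits, was not called (0.20 ± 0.08, adjusted p = 0.0935). Angptl2 changed without a trend, with 444 ± 28.5 CPM at 12 h, 307 ± 21.1 CPM at 36 h and 387 ± 23.7 CPM at 60 h (any change, adjusted p = 8.06e-05). Lipg, Mgll, G0s2, Acaca and Fgf21 kept their direction and were called without the 12 h libraries.

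**Figure D4:**
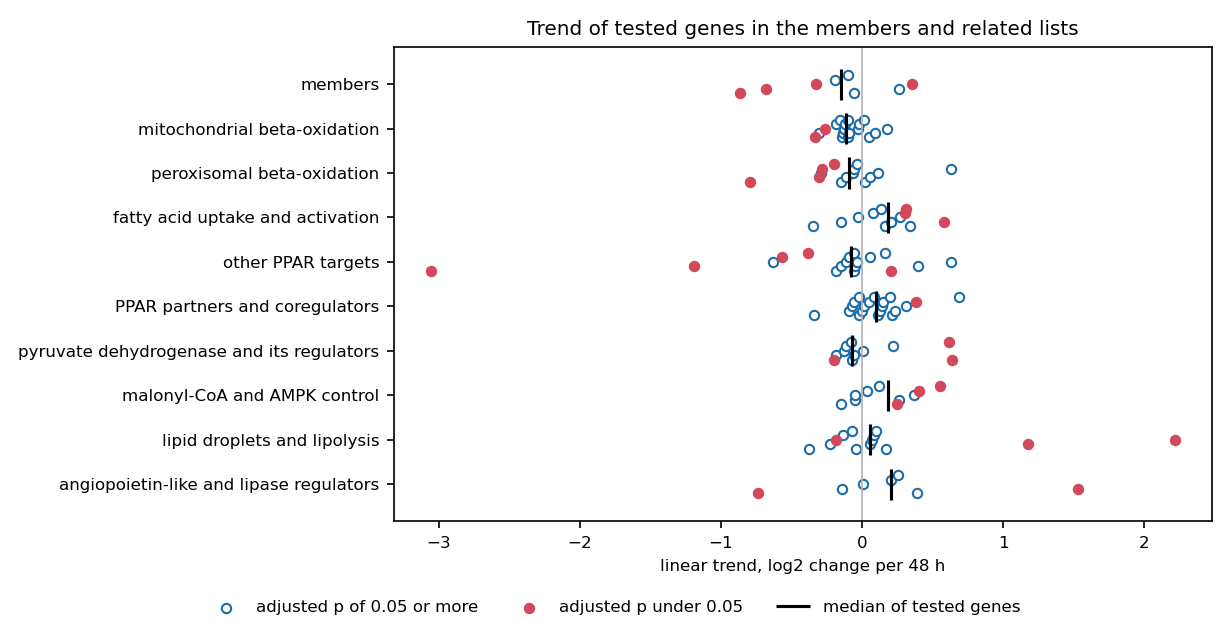
Linear trend in log2 change per 48 h of each tested gene of the 10 members and of 9 related lists, with filled points for an edgeR adjusted p under 0.05 and a bar at each list's median. The list medians lie between -0.15 for the members and 0.20 for the angiopoietin-like and lipase list, while single genes reach -3.05 (Fgf21) and 2.21 (Mgll).

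Some markers of the muscle cells also had a trend. Of the 14 myotube markers 1 rose and 2 fell, a share near the 19.4% of all genes. Myh3, embryonic myosin, rose by 0.30 ± 0.08 (edgeR adjusted p = 0.0099), and was not called without 12 h (0.27, adjusted p = 0.125). Myog, the transcription factor of early differentiation, was 420 ± 30.1 CPM at 60 h, against 744 ± 11.4 CPM at 12 h (trend -0.91 ± 0.06, edgeR adjusted p = 6.82e-11), and Mymx, which drives fusion, changed by -1.36 ± 0.09 (adjusted p = 3.35e-11). Summed over the list the markers gave 19800 to 20400 CPM at 60 h, against 20400 to 21000 CPM at 12 h. Of the 8 markers of myoblasts and reserve cells 0 rose and 1 fell (Cd34, -0.48, adjusted p = 0.00517, or -0.11 and 0.705 without 12 h), with a sum of 535 to 585 CPM at 60 h, against 509 to 607 CPM at 12 h. Of the 8 proliferation markers 7 changed in some way, beside 18.4% of all genes, and 1 had an upward trend. Their sum was 987 to 1040 CPM at 60 h, against 928 to 1030 CPM at 12 h. At 60 h against 12 h 3 were higher and 3 lower, where 9.48% and 6.54% of all genes were. Ccna2 was among the higher (0.45 ± 0.07, edgeR adjusted p = 9.3e-05) and Mcm5 among the lower (-0.66 ± 0.08, adjusted p = 1.37e-06). The adipocyte list gave 24 to 24.5 CPM at 60 h, against 20.8 to 26.2 CPM at 12 h. The part of differentiation or of cell division in the fall of Cpt1a and Angptl4 was not tested.

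On mm10, Cpt1a (ENSMUSG00000024900) lies on chromosome 19 from 3322334 to 3385733 on the plus strand. Angptl4 (ENSMUSG00000002289) lies on chromosome 17 from 33773750 to 33781830, Plin2 (ENSMUSG00000028494) on chromosome 4 from 86648386 to 86670060 and Pdk4 (ENSMUSG00000019577) on chromosome 6 from 5483351 to 5496309, all on the minus strand. Values are whole-gene counts and do not tell transcripts of a gene apart.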

How the data were processed

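The libraries were stranded and made from ribosome-depleted total RNA, per the labels' protocols. The authors deposited raw counts (whole reads, without normalization) of 20446 Ensembl genes in each of 27 libraries. Trimming was with Trim Galore 0.4.0 and cutadapt 1.9.1, counting with featureCounts and the genome build mm10, per the submitters' processing notes. The aligner, the annotation release and the settings of featureCounts were not given in the sources used here, which limits what can be said of genes with shared exons. Symbols, positions and exon lengths came from GENCODE M21 (20327 genes matched, 119 did not).

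Libraries were grouped by the time point in their titles. Genes passed edgeR's filterByExpr (minimum count 10), which kept 12687 and left out 7759, 3717 of them without a read. Counts were scaled by TMM. No pair of libraries within a time point agreed within sampling noise (lowest chi-square per degree of freedom 5.66). The biological coefficient of variation was 11.8%. Tests were edgeR quasi-likelihood F tests on all 27 libraries with p adjusted by Benjamini-Hochberg across the tested genes and a threshold of 0.05. Time was a factor for any change (its size is the fitted highest minus lowest time point, without an error) and for contrasts of time points. Linear time (per 48 h), cosine and sine of 24 h formed 1 model for trend and rhythm, and the alternation of collections was a term in a model with linear and quadratic time and that wave. Software was edgeR 4.0.16, DESeq2 1.42.0 and limma 3.58.1 in R 4.3.3. The fits were tested on simulated data.

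The members and lists were chosen with earlier results of these data known. All members are named; from each other list the rule named up to 4 tested genes with the smallest p for any change. Acaa1a, Ucp3, Acsl1 and Acsl4 were named outside this rule, after their values were seen, as were the list counts without 12 h. Alternatives were median of ratios scaling, DESeq2, no filter, a mean of 1 CPM, the number as a block, other periods, a quadratic term, no 24 h terms, and fits without each library, the 9 numbered 2 or the 12 h libraries.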

Additional observations from a re-analysis of the deposited data

How the results depend on the processing

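Median of ratios scaling, no filter and the filter of a mean of 1 CPM kept each member's direction and call and each count within 1.5 times. The alternation model could not be fitted to the unfiltered genes. DESeq2 called 4 members rather than 2 for any change, 183 genes rather than 111 for 60 h against 36 h, and 11 rather than 7 for the rhythm. Same-numbered libraries of 2 time points had correlated deviations in most but not all of 108 pairs (r from -0.0558 to 0.692, median 0.331, 91 over 0.1), and 26 of 27 libraries correlated best with their own number, a hint from the data and not from the design. With the replicate block, 5166 genes and 6 members were called for any change (2338 and 2 without it), 3748 and 5 for 60 h against 12 h (2033 and 3), 3802 genes for 36 h against 12 h (2029), 414 for 60 h against 36 h, 1988 and 3 members for the second 24 h minus the first (857 and 1), 3844 genes for the trend (2458), and 510 and 2 members for the alternation (149 and 1). The block added Plin2, Pdk4, Hadha and Acadl for any change, Pdk4 (0.36, adjusted p = 0.000124) and Acadl (-0.25, 0.00908) for 60 h against 12 h, Pdk4 for 36 h against 12 h (0.26, 0.00417), Cpt1a (0.39, 0.0178) and Plin2 (0.44, 0.00131) for the second 24 h minus the first, Acadl for the trend (-0.18, 0.0252) and Cpt1a for the alternation (-0.17, 0.0201), and ended no member's call. Without the 9 libraries numbered 2, 1500 genes were called for any change, 33 for 60 h against 36 h, and 58 and 0 members for the alternation. Without the 12 h libraries there were 1189 genes for any change, 1181 and 1 member for the trend, and 248 genes for the alternation. With each library left out in turn, genes called ran from 1900 to 2398 for any change, 1465 to 2099 for 60 h against 12 h, 1551 to 2133 for 36 h against 12 h, 47 to 125 for 60 h against 36 h, 540 to 890 for the second 24 h minus the first, 2051 to 2650 for the trend, 6 to 9 for the rhythm and 100 to 165 for the alternation. For 60 h against 36 h each of the 6 libraries of these times lowered the count to between 47 and 69, and library 3 of 36 h lowered the second 24 h minus the first to 540. Members called ran from 2 to 4, 2 to 4, 2 to 4, 0 to 0, 1 to 2, 2 to 6, 0 to 0 and 0 to 1 in the same order. The 2 for the second 24 h minus the first came from Cpt1b, which the filter then let in, without library 3 of 60 h (-2.50, adjusted p = 0.0264). Signs turned for values that were not called. These were Acadm at 60 h against 36 h without number 2 (-0.01751 rather than 0.02) and, with a single library left out, Ppard at 60 h against 12 h (-0.009342 rather than 0.27), at 36 h against 12 h and in the second 24 h minus the first, and Pdk4, Plin2, Acadl, Acadm and Ppard at 60 h against 36 h (lowest -0.133, for Ppard). The cause of these differences was not tested. Depth limits Cpt1b and Ppara, which had at most 13 and 15 reads a library.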
